A study of Mus musculus with 36 samples.

Results

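Adipoq, the gene of the adipocyte hormone adiponectin, was read here together with 9 other genes of mouse chromosome 16 that lie within about 0.3 Mb of it: Kng1, Kng2, Hrg, Fetub, Ahsg, Eif4a2, Rfc4, B630019A10Rik and St6gal1. The 10 genes are 10 of the 56748 genes in the deposited expression table, and each symbol matched 1 gene there. They were chosen by position and with the FPKM (fragments per kilobase of transcript, scaled to the size of the library) of both genotypes already known. Their difference between genotypes is therefore given below as a description, with no p-value for any of them. Where the number of them called by genotype is given, it is a description too. Adipose tissue and liver were sampled from 18 male C57BL/6J mice, 1 library per tissue and mouse, 36 libraries in all. The visceral white adipose tissue (visWAT) and the liver of each mouse carry the same mouse number. Mlkl Adi-KO mice (KO) carried floxed Mlkl alleles and an Adipo-Cre transgene that acts in mature adipocytes, and their WT littermates carried the floxed alleles without Cre. From each tissue there were 4 KO and 4 WT mice on a normal chow diet (NCD) and 5 KO and 5 WT mice on a high-fat diet (HFD), and every mouse was kept on its diet for 16 weeks. The construct that drives Cre in this line, its site in the genome and any sequence of the Adipoq locus that it may carry are not given in the sources used here. All values are of RNA, and no DNA copy number was measured.

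Adiponectin is made almost entirely by mature adipocytes, circulates as multimers and signals to liver and muscle through its receptors. The block of genes upstream of it is mostly a family of secreted liver proteins that share cystatin-like domains: Ahsg and Fetub encode the fetuins, Hrg the histidine-rich glycoprotein, and Kng1 and Kng2 the kininogens, from which kallikreins release kinin peptides that dilate vessels. Eif4a2 and Rfc4 stand between the kininogens and Adipoq and have no such tissue limit: the first encodes an RNA helicase of the translation initiation complex eIF4F, the second a subunit of the clamp loader that places PCNA on DNA. On the other side of Adipoq lie B630019A10Rik, a long non-coding RNA, and St6gal1, a sialyltransferase that caps N-glycans and is abundant in liver.

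In the deposited coordinates (mm39, the GRCm39 assembly) the genes run in the order Ahsg (chr16:22710027-22718199), Fetub (chr16:22737084-22758528), Hrg (chr16:22769822-22780406), Kng2 (chr16:22804604-22848232), Kng1 (chr16:22876615-22900828), Eif4a2 (chr16:22926194-22932886), Rfc4 (chr16:22932693-22946487), Adipoq (chr16:22965286-22976778), B630019A10Rik (chr16:22994030-23043196) and St6gal1 (chr16:23043490-23179100). Kng2 and Rfc4 are on the minus strand and the others on the plus strand. The 3′ ends of Eif4a2 and Rfc4 overlap by 194 bases on opposite strands, and the strand setting of the authors' counting is not given in the sources used here, so reads of that overlap cannot be told apart. B630019A10Rik ends 293 bases before St6gal1 starts. Measured from the nearest ends, Kng2 lies 117 kb, Kng1 64.5 kb, Eif4a2 32.4 kb and Rfc4 18.8 kb upstream of Adipoq, B630019A10Rik 17.3 kb and St6gal1 66.7 kb downstream. Hrg, Fetub and Ahsg are farther upstream, at 185, 207 and 247 kb. RefSeq holds an upstream sequence for 8 of the 10 genes, and Kng1 and B630019A10Rik have none there. Of these, the stretches before Hrg and Kng2, the neighbours between which the pattern of genotype values described below changed, and before Adipoq itself are shown 5′ to 3′ on the strand of each gene, as found by exact match in GRCm39. They are Hrg at chr16:22769572-22769821 (plus strand), Kng2 at chr16:22847889-22848101 (minus strand, exonic bases left out) and Adipoq at chr16:22965036-22965285 (plus strand). The starts are those of RefSeq. The Kng2 stretch lies inside the deposited body of Kng2, whose start on the minus strand is at chr16:22848232. Capitals mark a CCAAT box (CCAAT) or a C/EBP-like motif (TTGCNNAA), searched on both strands.
Hrg: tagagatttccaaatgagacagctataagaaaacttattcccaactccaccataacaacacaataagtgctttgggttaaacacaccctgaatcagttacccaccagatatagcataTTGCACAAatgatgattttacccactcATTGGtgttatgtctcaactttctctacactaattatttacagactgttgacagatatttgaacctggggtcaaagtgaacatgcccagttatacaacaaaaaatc
Kng2: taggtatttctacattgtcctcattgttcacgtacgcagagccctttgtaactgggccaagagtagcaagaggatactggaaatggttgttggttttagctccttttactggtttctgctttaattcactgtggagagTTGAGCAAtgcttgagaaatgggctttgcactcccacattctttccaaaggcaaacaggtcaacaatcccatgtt
Adipoq: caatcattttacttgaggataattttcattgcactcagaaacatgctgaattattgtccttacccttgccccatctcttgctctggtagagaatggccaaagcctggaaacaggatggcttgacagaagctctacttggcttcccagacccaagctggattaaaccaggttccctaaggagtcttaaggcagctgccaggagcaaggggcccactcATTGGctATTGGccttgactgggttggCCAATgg
Of 32851 such windows of 250 bases over all genes, 33.8% held CCAAT and 9.6% held TTGCNNAA. The window before Adipoq held 3 CCAAT and no CpG, that before Hrg held 1 CCAAT, 1 TTGCNNAA and no CpG, and that before Kng2 held 1 TTGCNNAA and 2 CpG, where the median window held 6 CpG. The windows before Eif4a2 and Rfc4 held 27 CpG each, with 3 GC boxes (GGGCGG) before Eif4a2 and 1 before Rfc4, a motif held by 32.7% of windows. Of the 250 bases in each, 203 before Eif4a2 and 250 before Rfc4 lie in annotated exons. These matches describe the letters and were not tested against the expression values.

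Reads on genes ranged from 20875463 to 25530574 per liver library and from 21580696 to 30322171 per visWAT library. Mlkl itself checked the labels: its level in visWAT on HFD was 2.53 ± 0.172 FPKM (SD, n = 5) in KO and 5.29 ± 0.652 FPKM (n = 5) in WT, and the groups did not overlap. On NCD the visWAT library labelled WT 182 held 2.29 FPKM of Mlkl, inside the KO range of 1.96 to 2.49 and below the other WT mice at 3.91 to 5.11. The liver library labelled WT 182 held 4.19 FPKM of Mlkl, above all other mice on NCD. Results that rest on this mouse are therefore given with and without it, and it is called the mouse labelled WT 182. The visWAT libraries of KO mouse 156 and, to a lesser degree, WT mouse 164 on HFD held transcripts of hepatocytes, the visWAT library of WT mouse 183 on NCD held transcripts of seminal vesicle (summed level 238510 FPKM), and that labelled WT 182 held a trace of them (318 FPKM).

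Eif4a2 was higher in every KO mouse than in every WT mouse in both tissues and on both diets. On HFD its visWAT level was 63.3, 51.5, 46.8, 74.2 and 56.9 FPKM in the KO mice and 33.7, 31.4, 34.3, 36.6 and 33.3 FPKM in the WT mice. On NCD it was 74.0, 73.4, 76.3 and 81.2 FPKM in KO and 53.8, 53.1, 58.3 and 52.1 FPKM in WT. The KO mice varied more on HFD, where their SD was 10.7 FPKM beside 1.90 FPKM in WT, and the lowest KO mouse, 153, was still above the highest WT mouse. In liver, a tissue in which Adipo-Cre is not meant to act, the levels on HFD were 86.5, 89.8, 92.5, 105 and 91.8 FPKM in KO and 61.7, 59.6, 66.1, 69.6 and 64.7 FPKM in WT. Liver levels on NCD were 99.6, 98.1, 109 and 95.5 FPKM in KO and 73.3, 71.5, 80.4 and 70.7 FPKM in WT. The KO mean was 1.73 times the WT mean in visWAT on HFD, 1.40 times in visWAT on NCD, 1.45 times in liver on HFD and 1.36 times in liver on NCD. In both NCD tissues the highest WT value came from the mouse labelled WT 182, between the other WT mice and the KO mice. Of 10947 genes read in all 4 genotype comparisons, 2 had every KO mouse above every WT mouse in all 4: Eif4a2 and Morf4l1-ps1, a pseudogene 1371 kb from Adipoq on the same chromosome. Of the windows of 150 bases in the Morf4l1-ps1 transcript, 80.12% occur also in its parent gene Morf4l1, so its reads are uncertain, whereas Eif4a2 shares no window of this length with its paralogue Eif4a1.

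Kng1 and Kng2, read in liver where kininogens are made, had the highest ratios of KO to WT of the 9 genes read in liver on HFD. Liver Kng1 on HFD was 1286, 1182, 1160, 1534 and 1366 FPKM in KO and 679, 607, 746, 685 and 675 FPKM in WT. On NCD it was 1451, 1619, 1509 and 1420 FPKM in KO and 787, 794, 1317 and 735 FPKM in WT. The KO mean of Kng1 was 1.92 times the WT mean on HFD and 1.65 times on NCD, without overlap. The third WT value on NCD is from the mouse labelled WT 182, and without it the ratio on NCD was 1.94. Liver Kng2 on HFD was 185, 179, 171, 220 and 188 FPKM in KO and 120, 105, 133, 121 and 112 FPKM in WT. Its NCD levels were 196, 239, 217 and 194 FPKM in KO and 137, 118, 185 and 132 FPKM in WT, again with the mouse labelled WT 182 as the high WT value. The KO mean of Kng2 was 1.59 times the WT mean on HFD and 1.48 times on NCD (1.64 without that mouse). The ratio of Kng1 to Kng2 within a liver had a higher mean in KO: 6.92 ± 0.252 (SD, n = 5) beside 5.75 ± 0.179 (n = 5) on HFD, and 7.11 ± 0.311 (n = 4) beside 6.29 ± 0.748 (n = 4) on NCD, where the genotypes overlapped. That overlap rested on the mouse labelled WT 182, at 7.11. The other WT livers on NCD ran from 5.56 to 6.73, and the KO livers from 6.76 to 7.41. The kininogen transcripts are near copies in part, with 45 windows of 150 bases in common, 0.75% of those of Kng1 and 1.01% of those of Kng2.

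**Figure D1:**
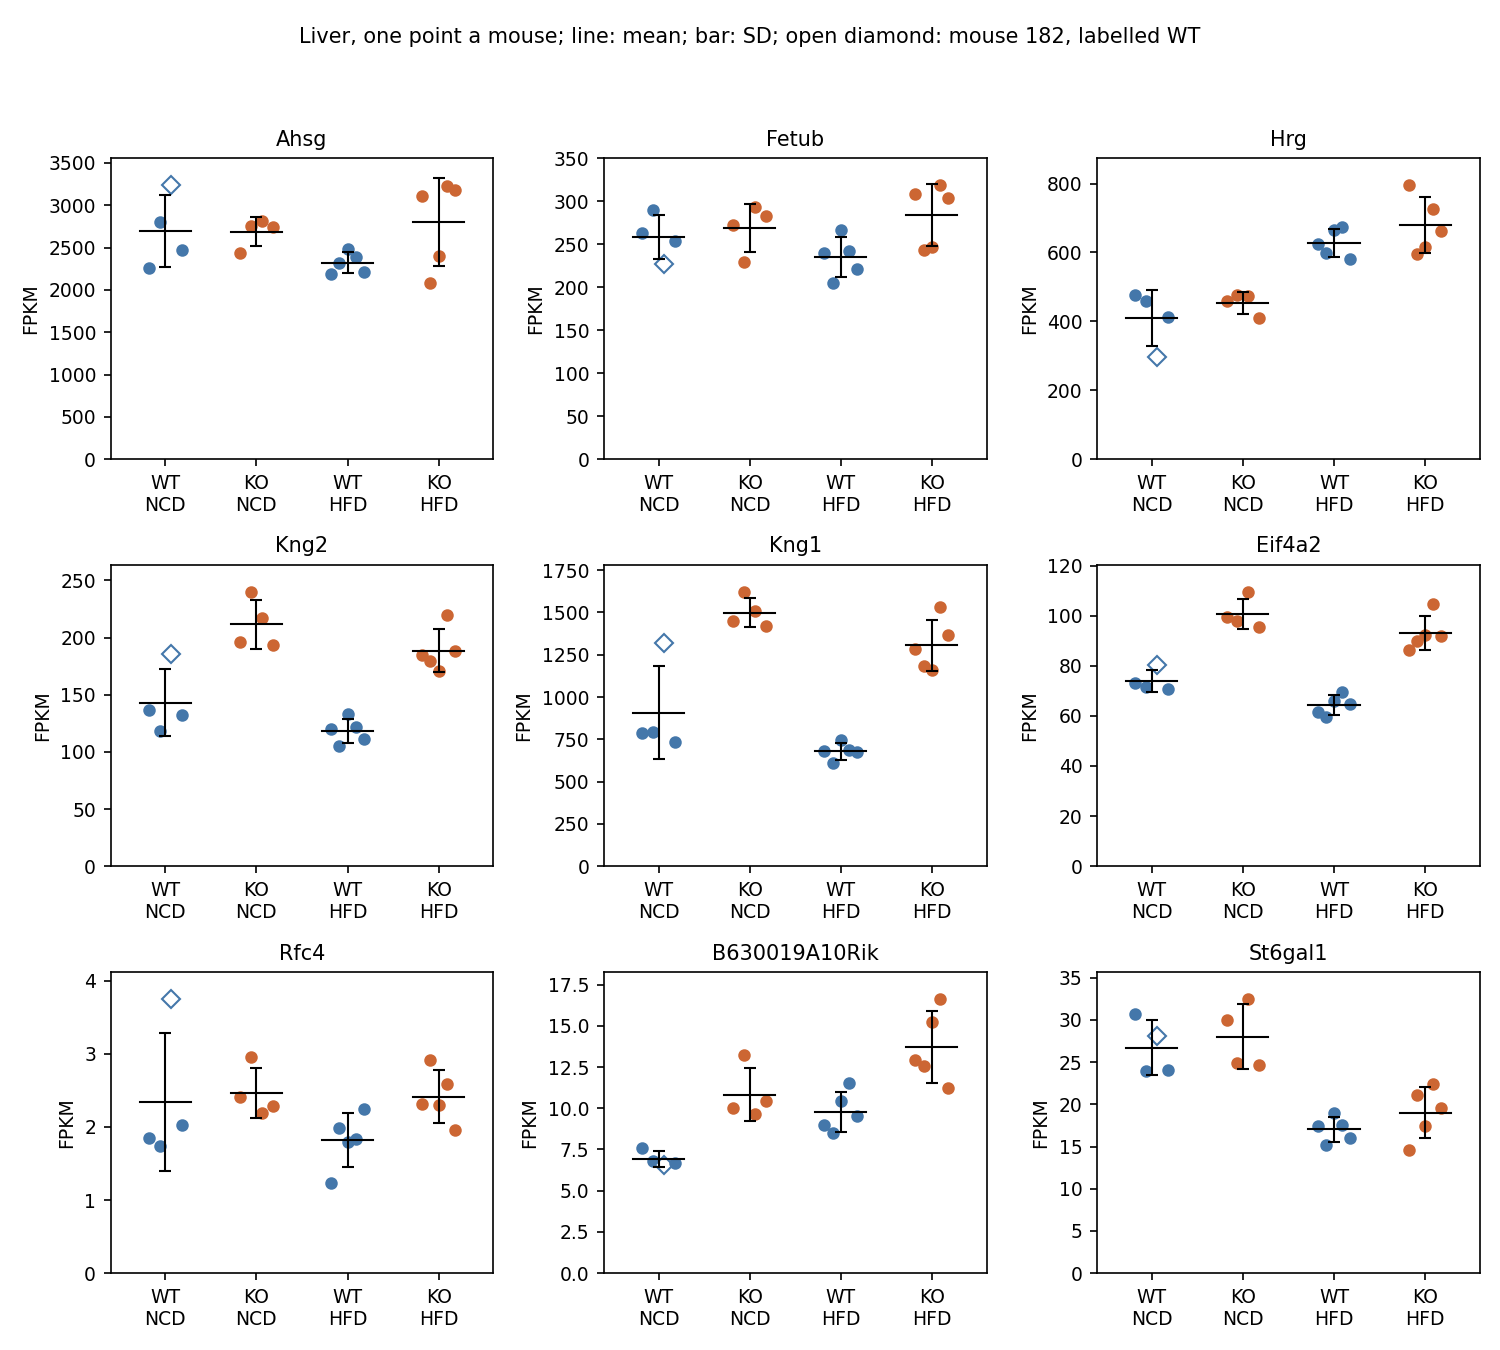
Liver levels (FPKM, linear axes from 0) of the 9 genes read in liver, 1 point per mouse, by diet and genotype, with a line at each group mean, a bar of 1 SD either way and the mouse labelled WT 182 drawn as a diamond. KO and WT points of Kng2, Kng1 and Eif4a2 do not overlap on either diet, those of Ahsg, Fetub, Hrg and St6gal1 do on both, and the diamond of Kng1 lies at 1317 FPKM, above the other WT mice on NCD.

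Rfc4, whose 3′ end meets that of Eif4a2, was a low gene in both tissues, with 88 to 286 reads per visWAT library and 34 to 119 per liver library. In visWAT on HFD it was 4.31, 4.45, 5.17, 3.56 and 4.24 FPKM in KO and 2.54, 3.44, 3.19, 2.81 and 2.77 FPKM in WT, so that the lowest KO mouse stood just above the highest WT mouse and the KO mean was 1.47 times the WT mean. On NCD it was 3.04, 2.70, 3.24 and 3.80 FPKM in KO and 2.02, 2.12, 4.38 and 1.87 FPKM in WT. The mouse labelled WT 182 was the highest of all 8 there, and without it the groups did not overlap (ratio 1.60, beside 1.23 with it). The same mouse was the highest of 8 for liver Rfc4 on NCD, at 3.75 FPKM beside 1.85, 1.74 and 2.02 FPKM in the other WT livers and 2.41, 2.96, 2.20 and 2.29 FPKM in KO. Without it the KO livers were all above WT (ratio 1.32, beside 1.05 with it). Liver Rfc4 on HFD overlapped between the genotypes, with a ratio of 1.33.

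B630019A10Rik was read in liver. On NCD it was 10.03, 13.2, 9.64 and 10.4 FPKM in KO and 7.60, 6.82, 6.56 and 6.67 FPKM in WT, a ratio of 1.57 without overlap, and the mouse labelled WT 182 was the lowest. On HFD it was 12.9, 12.5, 15.2, 16.6 and 11.3 FPKM in KO and 8.96, 8.51, 10.5, 11.5 and 9.50 FPKM in WT, a ratio of 1.40, with the lowest KO mouse just under the highest WT mouse. In visWAT the RNA was near the limit of these libraries. Its visWAT levels on HFD were 0.0702 to 0.233 FPKM in KO, from 23 to 67 reads, and 0.0338 to 0.0567 FPKM in WT, from 10 to 20 reads. These groups did not overlap either, also without mice 156 and 164, where the ratio was 1.66. On NCD they were 0.106 to 0.151 FPKM in KO and 0.0134 to 0.144 FPKM in WT, of which the highest was the mouse labelled WT 182. All these visWAT levels were under the minimum mean of 0.5 FPKM used for the fits.

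Adipoq lies between Rfc4 and B630019A10Rik, and its visWAT level did not separate the genotypes. On HFD it was 1828, 1018, 891, 1994 and 1947 FPKM in KO and 989, 743, 890, 961 and 972 FPKM in WT. KO mice 152 and 153 were close to or inside the WT range, and the other 3 KO mice stood clear of it, for a ratio of 1.69. The summed level of 15 mature adipocyte genes moved with these values: it was 5836 and 5533 FPKM in KO mice 152 and 153, 9643 to 12181 FPKM in the other 3 KO mice and 4898 to 6352 FPKM in WT. The summed level of 8 macrophage genes was 2209 and 2393 FPKM in KO mice 152 and 153, 817 to 1512 FPKM in the other 3 and 1884 to 2608 FPKM in WT. In bulk tissue, fewer adipocytes and less Adipoq RNA per adipocyte cannot be told apart, and the part of the cell makeup in these levels was not tested. On NCD Adipoq was 1767, 1368, 1568 and 1995 FPKM in KO and 1700, 1675, 1133 and 1114 FPKM in WT, a ratio of 1.19 that fell to 0.992 without the mice labelled WT 182 and WT 183, which gave the low pair. In liver Adipoq stayed at or under 0.250 FPKM (0 to 6 reads) in 17 of 18 mice. The exception was WT mouse 155 on HFD, at 2.70 FPKM and 70 reads, a library that also held 1.18 FPKM of the adipocyte gene Plin1 and 0.875 FPKM of Lep, where no other liver passed 0.0263 and 0.0457 FPKM. Both were picked from the 15 adipocyte genes after their values were seen. Among the WT livers on HFD this one was also the highest for Fabp4 and Retn, but the lowest for Plin4 and Cidec. Its summed level of all 15 was 1305 FPKM, the lowest of that group (1305 to 1785 FPKM). Most of that sum came from Pck1 (652 FPKM), Cebpa (283 FPKM) and Acsl1 (196 FPKM), which were high in every liver. The sum therefore cannot show a trace of adipocytes at the level of Plin1 or Lep.

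**Figure D2:**
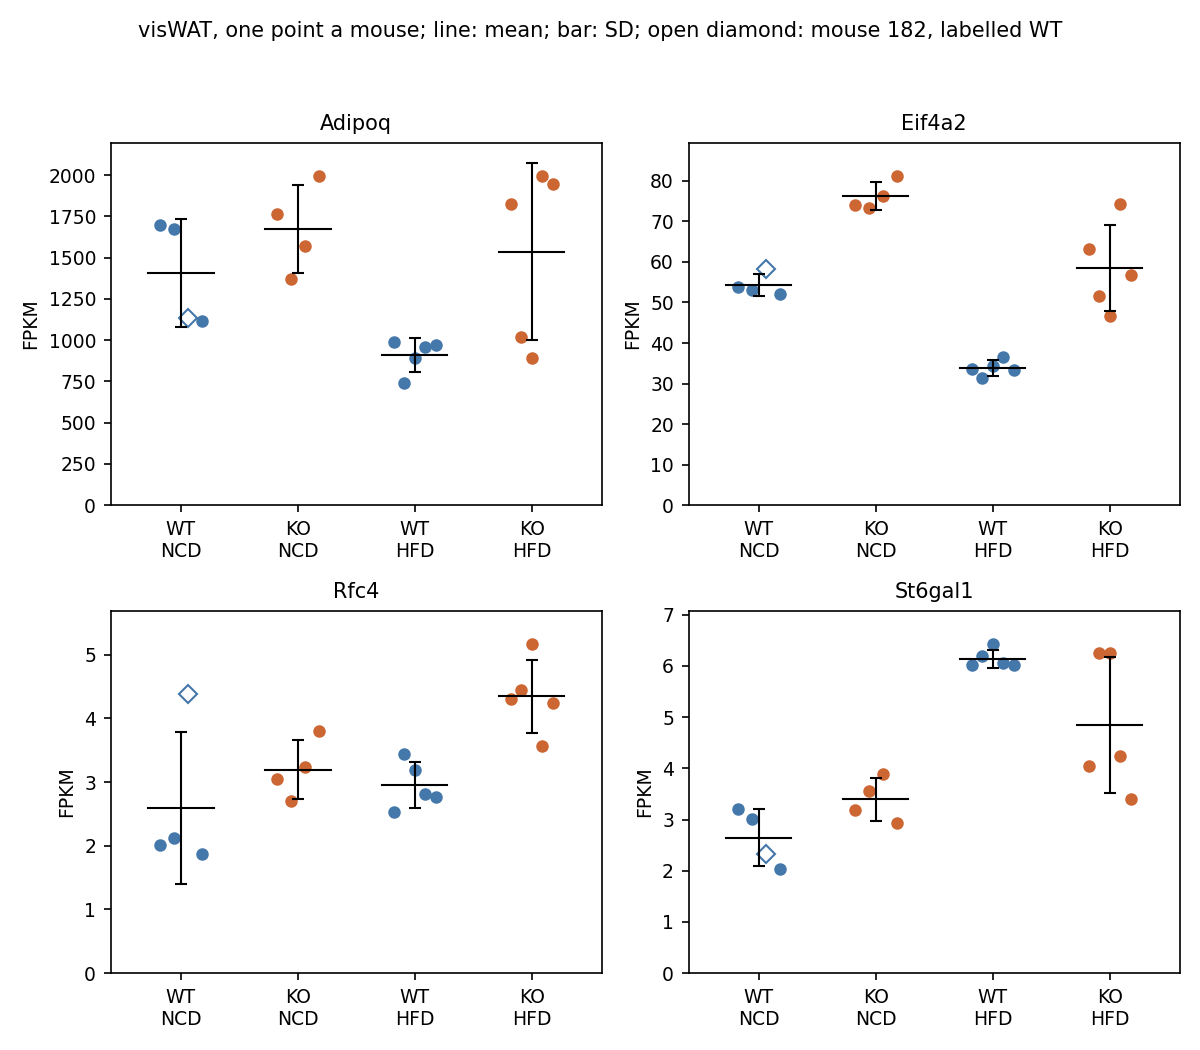
visWAT levels (FPKM, linear axes from 0) of Eif4a2, Rfc4, Adipoq and St6gal1, 1 point per mouse, by diet and genotype, with a line at each group mean, a bar of 1 SD either way and the mouse labelled WT 182 drawn as a diamond. Eif4a2 separates KO from WT on both diets, Adipoq on neither, and the Rfc4 diamond lies at 4.38 FPKM, above all mice on NCD.

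The secreted liver genes farther upstream did not separate the genotypes. Liver Ahsg ran from 2083 to 3234 FPKM in KO and 2191 to 2486 FPKM in WT on HFD (ratio 1.21), and from 2441 to 2819 FPKM in KO and 2253 to 3235 FPKM in WT on NCD (ratio 0.999). Liver Fetub ran from 243 to 319 FPKM in KO and 205 to 267 FPKM in WT on HFD (ratio 1.21), with a ratio of 1.04 on NCD. Hrg, the nearest of them to the kininogens with a gap of 24.2 kb to Kng2, had ratios of 1.08 on HFD and 1.11 on NCD. Its liver levels on NCD were 459, 477, 473 and 408 FPKM in KO and 478, 458, 296 and 412 FPKM in WT. The mouse labelled WT 182 was thus low for Hrg, low for Fetub (227 FPKM) and high for Ahsg (3235 FPKM), outside the range of the other mice on NCD each time. On the far side of Adipoq, liver St6gal1 had ratios of 1.12 on HFD and 1.05 on NCD, and in visWAT the ratio was 0.789 on HFD and 1.28 on NCD, all with overlap.

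The values were also set along the chromosome. From Kng2 to B630019A10Rik, a span of 239 kb, each of the 5 genes of the 10 other than Adipoq had a tissue and diet in which all KO mice stood above all WT mice. Ahsg, Fetub and Hrg on one side and St6gal1 on the other had none. The share of all genes that did so in any tissue and diet was not counted, so this is a description of the 10 genes. Other genes inside that span are given below. Counted over the genes read, all KO mice stood above all WT mice for 3 of 9 of the 10 genes in liver on HFD, beside 1.38% of all genes tested, and for 4 of 9 in liver on NCD, beside 1.39%. In visWAT the counts were 2 of 9 on HFD, beside 1.42% of all genes, and 1 of 5 on NCD, beside 1.87%. Without the mouse labelled WT 182 the counts on NCD were 5 of 9 in liver, beside 2.75% of all genes, and 2 of 5 in visWAT, beside 3.34%. Nothing is read from these counts, since the genes were chosen with this contrast in view. The log2 differences (KO minus WT, on log2(FPKM + 1)) were 0.94 (SE 0.09) and 0.76 (SE 0.18) for liver Kng1 on HFD and NCD, 0.67 (SE 0.08) and 0.58 (SE 0.14) for liver Kng2, 0.52 (SE 0.06) and 0.44 (SE 0.07) for liver Eif4a2, and 0.44 (SE 0.11) and 0.57 (SE 0.10) for liver B630019A10Rik.

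**Figure D3:**
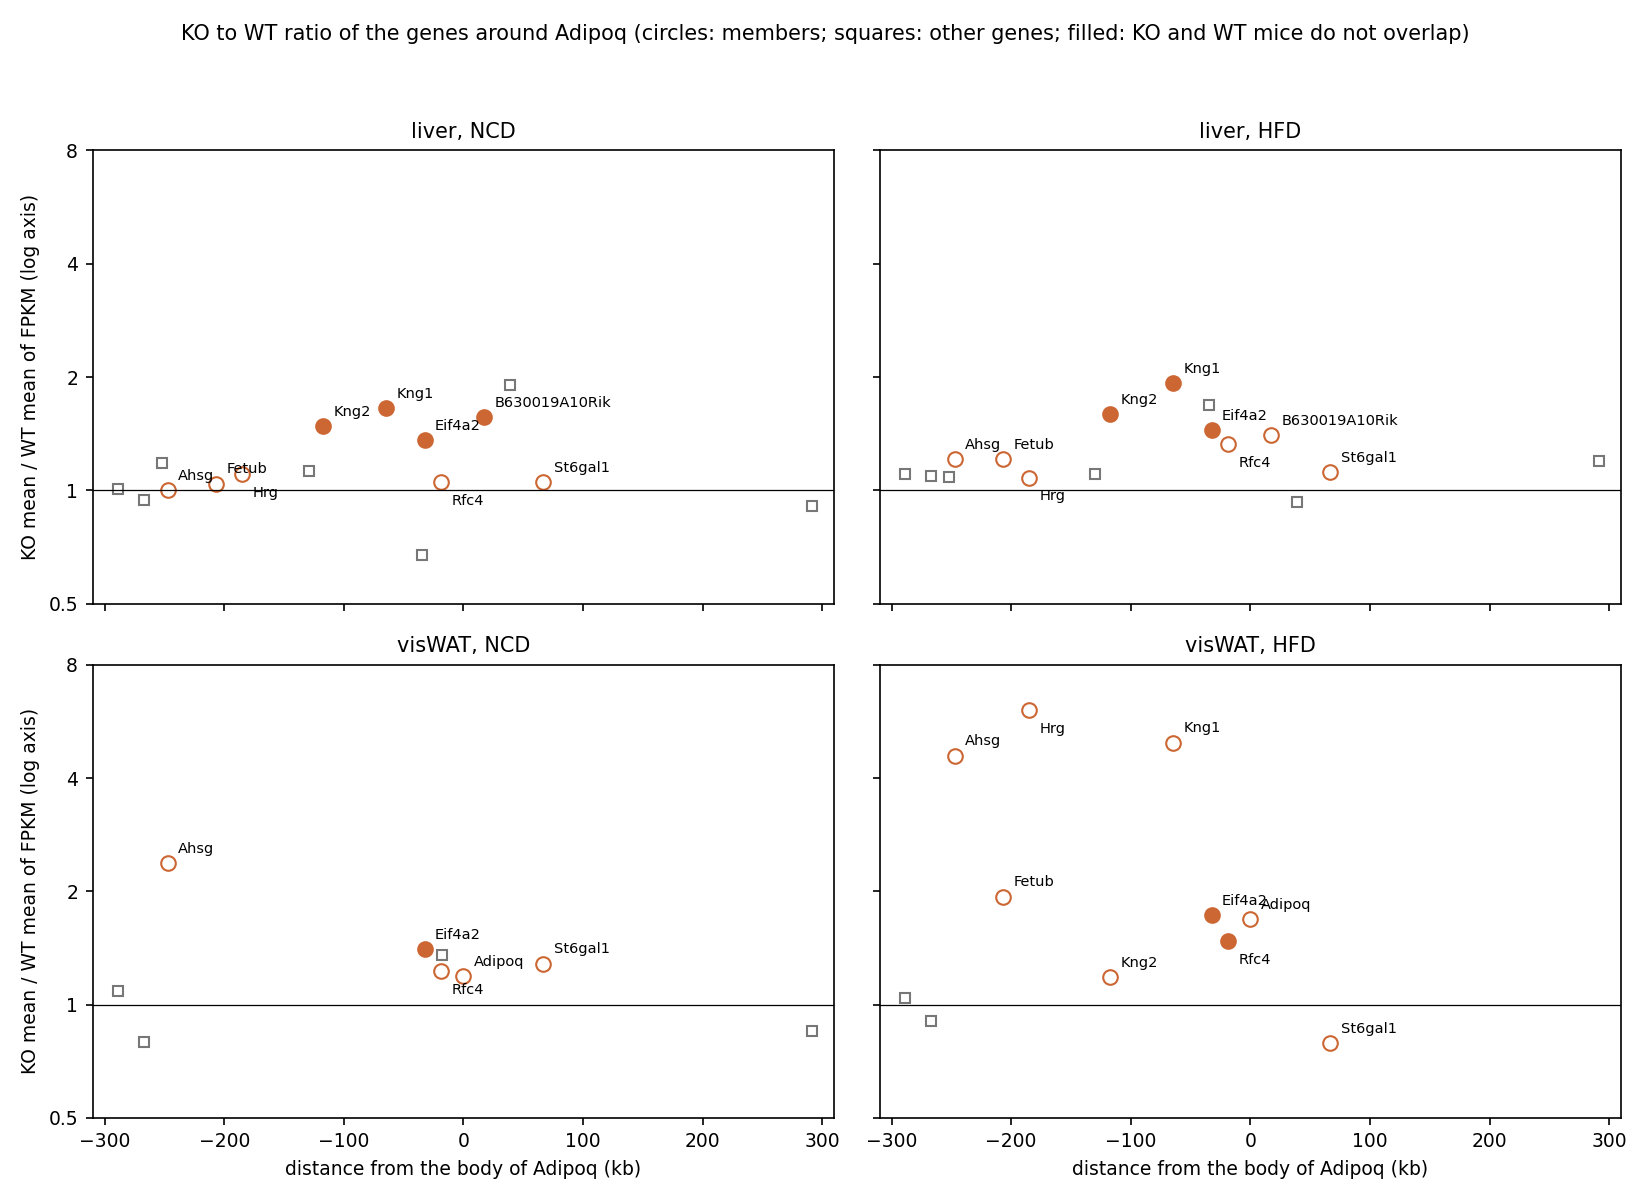
KO mean over WT mean (log axis) against the distance from Adipoq in kb, upstream negative, in 4 panels by tissue and diet, with circles for the 10 genes and squares for other genes within 0.3 Mb, filled where all KO mice stood above all WT mice. In liver Kng2, Kng1 and Eif4a2 are filled on both diets, with Kng1 the highest circle at 1.92 on HFD and 1.65 on NCD, and the open square above it on NCD is the pseudogene Gm15746 at 1.90, while Ahsg, Fetub, Hrg and St6gal1 lie between 0.999 and 1.21. In visWAT on HFD the high open points of Ahsg, Hrg and Kng1 rest on the library of KO mouse 156.

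Other genes of the neighbourhood were read by the same measure. Within 0.3 Mb the table holds 24 further genes, of which 8 averaged 0.5 FPKM or more in a tissue: Tbccd1, Dnajb11, Gm30505, Gm6493, Gm24616, Gm15746, Masp1 and 6330408M09Rik. None of those at or over that mean in a comparison had all KO mice above all WT mice there (0 of 7 in liver on each diet, 0 of 2 in visWAT on HFD and 0 of 4 in visWAT on NCD). Below it, 6330408M09Rik, a long non-coding RNA between Rfc4 and Adipoq, did so in visWAT on HFD, with 0.411 to 0.698 FPKM in KO and 0.119 to 0.394 FPKM in WT. Gm8134, a pseudogene between Kng1 and Eif4a2, did so in liver on NCD, with 0.0362 to 0.150 FPKM in KO and 0 in every WT mouse. The highest ratios of KO to WT among these 8 genes in liver were 1.69 on HFD for Gm24616, a small nucleolar RNA inside Eif4a2 with 0 to 7 reads per library, and 1.90 on NCD for Gm15746, a pseudogene inside B630019A10Rik on the other strand, both with overlap. Gm15746 had a ratio of 0.933 on HFD, and Gm24616 had 0.672 on NCD. Without the mice labelled WT 182 and WT 183, which leaves 2 WT livers, Gm15746 and Gm6493, a pseudogene inside Kng2, were also higher in all KO livers on NCD. Dnajb11, a chaperone gene just beyond Ahsg, had a liver mean of 26.8 ± 4.99 FPKM (SD, n = 5) in KO and 24.4 ± 1.40 FPKM (n = 5) in WT on HFD. Masp1, a complement protease gene 291 kb from Adipoq, had liver ratios of 1.19 on HFD and 0.906 on NCD, and without the mouse labelled WT 182 all its KO livers on NCD were below the WT livers. Out to 5 Mb, limma called 0 of 70 other genes by genotype in visWAT on HFD (0.0215% of all genes), 0 of 68 in visWAT on NCD (0%), 0 of 70 in liver on HFD (0.197%) and 0 of 73 in liver on NCD (0.00758%). At an unadjusted p under 0.05 stood 15, 2, 9 and 4 of the genes at 1 to 5 Mb in the same order, of 62, 58, 53 and 58 tested, beside 3003, 528, 1664 and 574 of all genes. edgeR's quasi-likelihood test on recovered reads called 1 of the 70 in liver on HFD, Arvcf, and none in the other comparisons. DESeq2 on recovered reads called 1, 0, 5 and 1 in the same order, beside 1.05%, 0.0569%, 1.96% and 0.144% of all genes.

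Tissue set the levels of most of these genes by orders of magnitude. In WT mice, visWAT minus liver on log2(FPKM + 1) was 10.37 on NCD and 9.44 on HFD for Adipoq (limma adjusted p 2.35e-10 and 1.48e-10). The same difference was -10.96 and -9.98 for Ahsg, -9.62 and -8.91 for Kng1, -8.63 and -9.03 for Hrg, -7.68 and -7.33 for Fetub, and -6.89 and -5.95 for Kng2. St6gal1 was lower in visWAT by smaller amounts, -2.93 on NCD and -1.33 on HFD, and B630019A10Rik by -2.89 and -3.36. Eif4a2 was lower in visWAT by -0.44 (SE 0.09, limma adjusted p 0.00263) on NCD and -0.91 (SE 0.05, adjusted p 1.83e-08) on HFD, but when every library was scaled to the same sum the sign turned, to 0.20 and 0.17. Rfc4 differed by 0.09 (SE 0.25, limma adjusted p 0.754) on NCD and 0.49 (SE 0.10, adjusted p 0.000611) on HFD. In all, limma called 9 of 10 on NCD, beside 65.5% of all genes, and 10 of 10 on HFD, beside 84.6%. On NCD, Ahsg, Fetub, Hrg, Kng1, Kng2 and B630019A10Rik passed the minimum of 0.5 FPKM only through liver, and Adipoq only through visWAT. On HFD this held for Fetub, Hrg and B630019A10Rik and, but for single WT mice (155 and 164), for Adipoq and Kng1. Neither these counts nor the p-values of these genes are therefore independent of tissue. DESeq2 on HFD called 6, beside 83.3%, and gave the other 4 no adjusted p. The order of liver levels on NCD in WT was Ahsg at 2692 ± 427 FPKM (SD, n = 4), Kng1 at 908 ± 274, Hrg at 411 ± 81.5, Fetub at 258 ± 25.5, Kng2 at 143 ± 29.3, Eif4a2 at 74.0 ± 4.41, St6gal1 at 26.7 ± 3.28, B630019A10Rik at 6.91 ± 0.469 and Rfc4 at 2.34 ± 0.944 FPKM. Neighbours in that order did not overlap between mice. FPKM are per transcript length and can be set beside each other between genes.

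The liver-made genes were also counted in visWAT, at levels that followed hepatocyte transcripts in single libraries. In KO mouse 156 on HFD all 15 hepatocyte genes were present, with a median of 1.44% of their liver level, and Ahsg, Fetub, Hrg, Kng1 and Kng2 lay at 1.34 to 1.70% of theirs. In WT mouse 164 on HFD the hepatocyte median was 0.278% and the 5 genes lay at 0.190 to 0.797%. In KO mouse 199 on NCD the hepatocyte median was 0.125% and the 5 genes lay at 0.0816 to 0.331%. No other visWAT library passed a hepatocyte median of 0.0393%. Visceral fat of mouse 156 thus gave 38.8 FPKM of Ahsg where the other 4 KO mice gave 0.291 to 1.18 FPKM, and 17.4 FPKM of Kng1 where they gave 0.00936 to 0.278 FPKM. Kng2 was different in the remaining libraries. In the 8 HFD mice other than 156 and 164 it reached 0.490 to 1.31 FPKM in visWAT, from 43 to 107 reads, while Kng1 stayed at or under 0.278 FPKM.

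**Figure D4:**
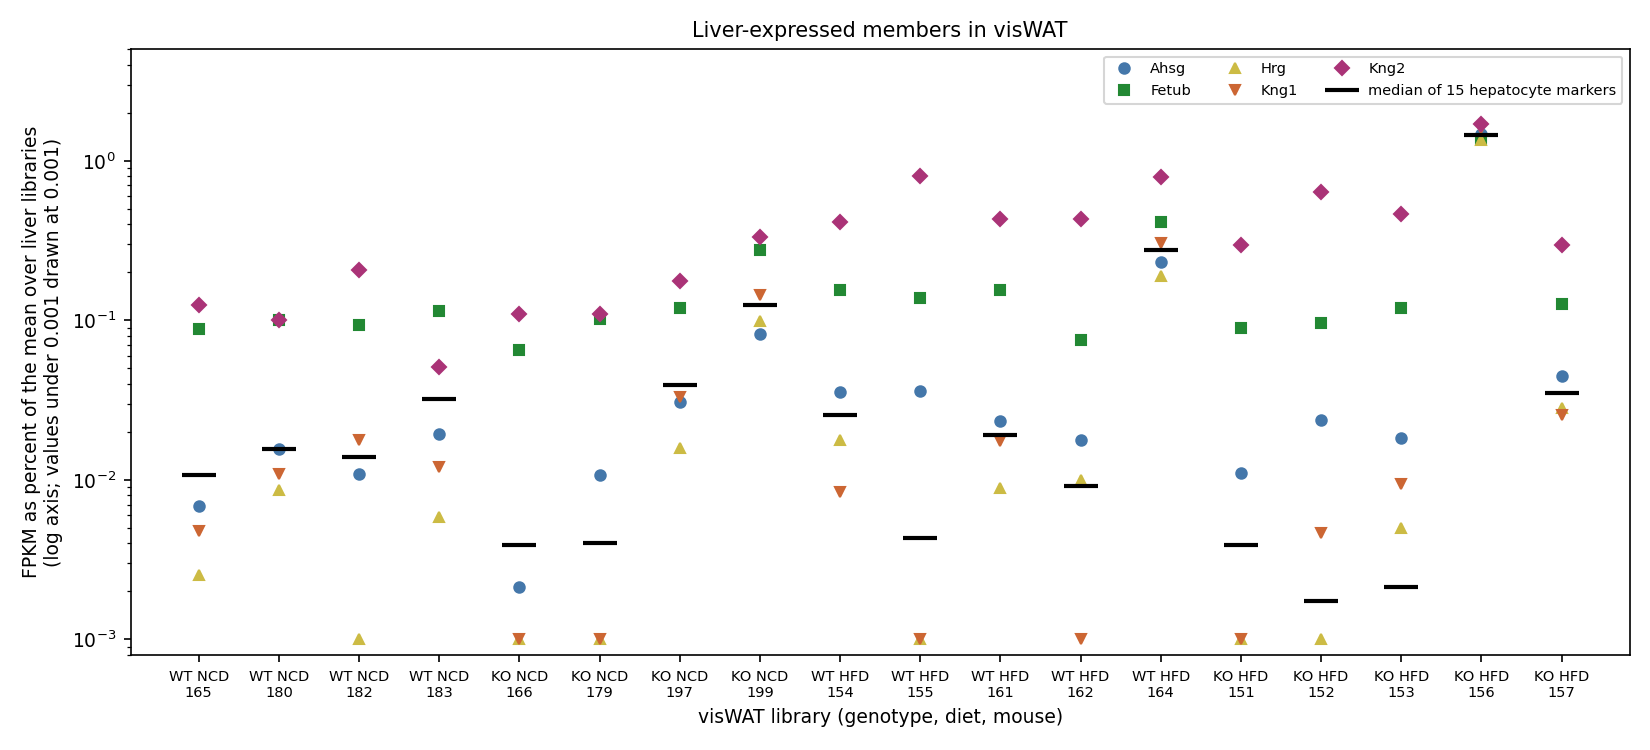
visWAT level of Ahsg, Fetub, Hrg, Kng1 and Kng2 (points) and the median of 15 hepatocyte genes (lines) as a percent of the mean liver level (log axis, values under 0.001 drawn at 0.001), by visWAT library. In KO mouse 156 the 5 genes lie at 1.34 to 1.70%, beside a hepatocyte median of 1.44%, and in the other HFD libraries Kng2 lies above the other 4.

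Diet was tested within each genotype, a contrast that did not choose the genes. In WT visWAT limma called 4 of 6 genes read, beside 37.8% of all genes: St6gal1 and Kng2 rose on HFD and Adipoq and Eif4a2 fell. Kng2 and Ahsg were among the 6 only through their HFD mice, since their NCD means were under the minimum of 0.5 FPKM, so the count of 6 is not independent of diet. St6gal1 went from 3.21, 3.01, 2.32 and 2.03 FPKM on NCD to 6.01, 6.20, 6.43, 6.05 and 6.01 FPKM on HFD, a log2 difference of 0.98 (SE 0.10, limma adjusted p 5.10e-05) with no overlap. Kng2 went from 0.206, 0.165, 0.338 and 0.0836 FPKM to 0.675, 1.31, 0.708, 0.708 and 1.31 FPKM (log2 difference 0.68, SE 0.13, limma adjusted p 0.00306, and 0.00654 with no filter on low values). Eif4a2 fell by 0.67 on the log2 scale (SE 0.07, limma adjusted p 9.75e-05), and all HFD mice were below all NCD mice. Adipoq fell by 0.60 (SE 0.18, limma adjusted p 0.0269), also without overlap, but this call was lost when any of WT mice 155, 161, 165 or 180 was left out (adjusted p up to 0.0802). The summed adipocyte level was 4898 to 6352 FPKM on HFD and 11084 to 22386 FPKM on NCD in the same WT mice, and its part in these falls was not tested. On the scale of equal library sums the median of all genes moved by 0.34, and Adipoq was at -0.12 (limma adjusted p 0.807) and Eif4a2 at -0.20 (adjusted p 0.579). Equal sums scale down every gene of the visWAT library of WT mouse 183 on NCD. Its FPKM summed to 564718, with 238510 from seminal vesicle genes. That labelled WT 182 summed to 309820, and all other visWAT libraries to 227793 to 269807. The part of these libraries in the loss of the calls was not tested.

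KO visWAT had 2 of 9 called by limma, beside 43.7% of all genes, and 4 of 9 by DESeq2, beside 48.5%. Fetub, Hrg, Kng1 and Kng2 were among these 9 only through the HFD mice, of which mouse 156 was the highest for each. Eif4a2 fell by 0.39 (SE 0.12, limma adjusted p 0.0297), a call lost in 7 of 9 fits that left out 1 mouse, and Rfc4 rose by 0.35 (SE 0.10, limma adjusted p 0.0187), lost in 2 of 9. Adipoq differed by -0.19 (SE 0.27, limma adjusted p 0.596) in KO, St6gal1 by 0.39 (SE 0.16, adjusted p 0.0744) and Kng2 by 0.62 (SE 0.26, adjusted p 0.0836). Rfc4 in WT visWAT, at 0.18 (SE 0.18, limma adjusted p 0.450), passed the threshold without the mouse labelled WT 182 (adjusted p 0.00568).

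In liver, Hrg rose and St6gal1 fell on HFD in both genotypes. Liver Hrg on HFD was 795, 595, 617, 727 and 661 FPKM in KO and 625, 599, 664, 673 and 580 FPKM in WT, all above the NCD mice given above. The log2 difference was 0.63 (SE 0.13, limma adjusted p 0.00799) in WT and 0.57 (SE 0.10, adjusted p 0.00311) in KO. St6gal1 in WT liver went from 30.6, 24.0, 28.1 and 24.0 FPKM on NCD to 17.4, 15.2, 19.0, 17.5 and 16.0 FPKM on HFD, the opposite direction to WT visWAT. It fell by 0.62 (SE 0.09, limma adjusted p 0.00126) in WT and by 0.54 (SE 0.13, adjusted p 0.0152) in KO. B630019A10Rik rose in WT liver by 0.44 (SE 0.09, limma adjusted p 0.0053), and in KO it differed by 0.31 (SE 0.12, adjusted p 0.0969). Eif4a2 in WT liver fell by 0.20 (SE 0.06, limma adjusted p 0.0397), a call lost in 8 of 9 fits that left out 1 mouse. Called were 4 of 9 genes in WT liver, beside 25.3% of all genes, and 2 of 9 in KO liver, beside 22.2%. Kng1 and Kng2 did not pass in either genotype (limma adjusted p 0.118 and 0.167 in WT, 0.152 and 0.231 in KO).

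The test of whether the genotype difference itself depended on diet called none of these genes. It shares the genotype values known when the genes were chosen, so it is not independent of that choice. Limma called 0 of 9 in visWAT, beside 0% of all genes, and 0 of 9 in liver, beside 0.0151%. At an unadjusted p under 0.05 stood 1867 and 811 of all genes. On recovered reads edgeR also called 0 of 9 in each tissue, beside 0% of all genes in visWAT and 0.00755% in liver, and DESeq2 called 0 of 9 in each, beside 0.141% and 0.438%. The visWAT values nearest to the threshold were St6gal1 at -0.60 (SE 0.19, limma adjusted p 0.326) and Eif4a2 at 0.28 (SE 0.14, adjusted p 0.412).

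Mouse by mouse, the kininogens and Eif4a2 varied together in liver. Over the 18 livers Pearson's r of log2(FPKM + 1) was 0.98 between Kng1 and Kng2, 0.96 between Kng1 and Eif4a2 and 0.95 between Kng2 and Eif4a2. With the mean of each group removed it was 0.90, 0.64 and 0.66. Without the mouse labelled WT 182, over 17 livers, these were 0.98, 0.97 and 0.96 as measured and 0.83, 0.60 and 0.57 with group means removed. The mice, the libraries and the group of each point are shared between the genes, and these values are descriptive. Among 11355 genes searched, Kng1 (r = 0.956) and Kng2 (r = 0.948) had the liver pattern most like Eif4a2, followed by Gm7049 (0.853), Zfp949 (0.848) and Morf4l1-ps1 (0.814). In visWAT, over 12066 genes, those most like Eif4a2 were Gsta4 (0.930), Zfp949 (0.910), Bckdhb (0.880), Tspo (0.878) and Hdac1 (0.878), and those most like Adipoq were Plaat3 (0.984), Eif4ebp1 (0.963), Mgst3 (0.960), Fam204a (0.956) and Rras (0.949). Between the 2 tissues of a mouse, with group means removed, r was 0.51 for Eif4a2, 0.59 for Rfc4 and 0.23 for St6gal1. Without the mouse labelled WT 182 it was 0.48, -0.08 and 0.26, so the value for Rfc4 rested on that mouse.

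Partner genes of the 10 were read from 7 lists by role: adiponectin receptors and signalling, adiponectin assembly, the kallikrein-kinin system, cystatin relatives with liver protease inhibitors, eIF4F, clamp loaders and sialyltransferases. No gene of any list was called by limma for genotype or for its interaction with diet in either tissue. The counts by diet below stand beside 37.8% of all genes called in WT visWAT, 43.7% in KO visWAT, 25.3% in WT liver and 22.2% in KO liver. The summed macrophage level in visWAT moved with diet too, from 237 to 338 FPKM on NCD to 1884 to 2608 FPKM on HFD in WT and from 306 to 517 FPKM to 817 to 2393 FPKM in KO, and its part in these counts was not tested. On HFD the subunits of AMP-activated kinase downstream of the adiponectin receptors, Prkaa1 and Prkaa2, fell in WT visWAT (by 0.68, limma adjusted p 0.000338, and by 0.59, adjusted p 0.0225), as 2 of 9 in that list, and none rose. In KO visWAT 4 of the 9 fell, these 2 with Ppara and Appl2, and none rose. The direction in liver was the opposite: 3 of 8 rose in WT (Ppara, Appl2 and Prkaa2) and 2 of 8 in KO (Ppara and Prkaa2). None fell in liver of either genotype. Of 8 assembly genes 1 rose (Plod3, a lysyl hydroxylase, 0.70, limma adjusted p 3.24e-05) and 1 fell (Gstk1, by 0.52, adjusted p 0.000252) in WT visWAT, and 5 rose in KO visWAT, Plod3 (0.69) and P4hb (0.60) the most. In liver of each genotype 1 of these 8 rose, Gstk1, and 2 fell. Clamp loader genes beside Rfc4 rose in 4 of 7 in WT visWAT, led by PCNA itself (Pcna, 1.08, limma adjusted p 0.000735), and none fell. In KO visWAT 2 of 6 rose, Pcna (0.79, limma adjusted p 0.0106) and Rfc2 (0.39, adjusted p 0.00647), and Rfc1 fell (by 0.23, adjusted p 0.0298). Eif4a1, the paralogue of Eif4a2, rose in visWAT (0.55 in WT, limma adjusted p 0.00347, and 0.53 in KO, adjusted p 0.007), where Eif4a2 fell, as 1 of the 13 eIF4F genes that rose in WT and 3 that fell, where 3 rose and 2 fell in KO. Serping1, the inhibitor of kallikrein and C1, rose in visWAT of WT (1.60, limma adjusted p 1.15e-05) and KO (0.96, adjusted p 0.00048). Of the kinin genes read there, 1 of 4 rose in WT and none fell, and in KO 1 of 5 rose and 1, Xpnpep2, fell. Cpn1, a kininase subunit, fell in liver of WT (by 0.53, limma adjusted p 8.19e-05) and KO (by 0.39, adjusted p 0.00642), with 2 of 7 kinin genes rising in WT and 3 of 7 in KO. Cstb and Cst3 rose in visWAT of both genotypes, 2 of 7 list members in WT and 2 of 9 in KO. Of the other sialyltransferases 3 of 10 rose and 1 fell in WT visWAT, led by St6galnac4 (1.17, limma adjusted p 2.11e-05), 3 rose and 2 fell in KO visWAT, and 1 of 7 rose in liver of each genotype, St6galnac6. The median log2 difference over all genes was -0.01 in WT visWAT, beside -0.23 for the receptor list, 0.23 for assembly, 0.43 for clamp loaders and 0.14 for sialyltransferases. In KO visWAT it was 0.01 over all genes, beside -0.12 for the receptor list, 0.42 for assembly, 0.19 for clamp loaders and -0.04 for sialyltransferases.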

How the data were processed

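RNA of visWAT and liver from 18 mice was sequenced after poly(A) selection. Per the study's methods, fastp was used for trimming, HISAT2 for mapping to mm39 and featureCounts 1.5.0-p3 for counting. The annotation release and the strand setting are not given in the sources used here. The values used are FPKM of 56748 genes as the authors deposited them, and the raw counts of reads that the authors give in their comparison tables. The fold changes, p-values and pathway tables deposited by the authors, and 72 further sample columns, were not used. Whole reads were recovered from the FPKM of every library (100% of values within 1%). Each FPKM rests on a library size that, divided by the reads counted, gave 0.737 to 0.812 for livers and 1.01 to 1.40 for visWAT, so the FPKM hold a scaling between libraries. Replicate libraries differed by a chi-square of at least 9.82 per gene. The liver labelled WT 182 differed from the other WT livers on NCD by 107 to 123, beside 12.1 to 20.7 among those others. In WT visWAT on NCD, pairs with the library labelled 182 or 183 differed by 207 to 959, beside 37.0 for mice 165 and 180.

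The main test was limma 3.58.1 (R 4.3.3) with an empirical Bayes trend on log2(FPKM + 1), over genes with a mean of at least 0.5 FPKM in the libraries compared, with Benjamini-Hochberg adjustment over all of them and a threshold of 0.05. A count test was planned where counts were available for all genes; since the values for all genes are FPKM, edgeR 4.0.16 and DESeq2 1.42.0 on the recovered reads served as alternatives. They called 3 and 146 genes by genotype in visWAT on HFD, 0 and 8 in visWAT on NCD, 27 and 259 in liver on HFD and 1 and 19 in liver on NCD. Also tried were 0.1 as pseudocount, no filter on low values, a minimum of 1 FPKM, library sums made equal (TPM scale), leaving out 1 mouse, and leaving out the pair of NCD mice labelled WT 182 and WT 183. Leaving out the visWAT of mice 156 and 164 was added after seeing the data. The scripts were tested on simulated data.

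The 10 genes, the lists and the tests were chosen with earlier results of these data known. Named besides them are Mlkl, other genes within 0.3 Mb averaging 0.5 FPKM or more in a tissue, genes within 5 Mb that a test called, the 5 genes most like Adipoq and Eif4a2 (mean of at least 1 FPKM), and called genes of the role lists, at most 3 a list. Morf4l1-ps1 in the count of genes that separate the genotypes in all comparisons, and Plin1 and Lep, were named after their values were seen. Nothing in the labels says whether mice of a group shared a cage or litter. Both tissues came from the same mouse, so tissue was also fitted with the mouse as a block. The deviations of the 2 tissues of a WT mouse correlated at -0.07 to 0.10 over 9704 genes.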

Additional observations from a re-analysis of the deposited data

Results flagged for a closer look

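Over the groups of 4 or 5 mice with a mean of at least 0.5 FPKM, 62 pairs of gene and group were screened by Dixon's criterion. The screen looked for a single mouse far from the others of its group, and 11 pairs (17.7%) were past it. Some groups reached that mean only through the mouse that was flagged, among them Adipoq in WT liver on HFD and Kng1 and Hrg in KO visWAT on HFD. The share is therefore not set beside a rate given by chance.

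Of these, 5 were in the visWAT of KO mouse 156 on HFD: Ahsg at 38.8 FPKM, Kng1 at 17.4 FPKM, Hrg at 7.45 FPKM, Fetub at 3.59 FPKM and Kng2 at 2.79 FPKM. A further pair were in the visWAT of WT mouse 164 on HFD, Ahsg at 6.07 FPKM and Kng1 at 3.31 FPKM. In both libraries hepatocyte genes were present at a median of 1.44% and 0.278% of their liver level.

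In the mouse labelled WT 182 on NCD, liver Kng1 stood at 1317 FPKM, beside 794 FPKM in the next WT mouse. Rfc4 was at 3.75 FPKM in its liver and 4.38 FPKM in its visWAT, beside 2.02 and 2.12 FPKM in the next WT mice. The Mlkl level of this mouse was inside the KO range in visWAT and above all others in liver.

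The last was Adipoq in the liver of WT mouse 155 on HFD, at 2.70 FPKM, beside 0.0405 FPKM in the next mouse of its group. The same library held mesothelial genes at a summed level of 37.4 FPKM, where the other WT livers on HFD held 1.27 to 2.98 FPKM.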

How the results depend on the processing

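Of 1773 log2 differences of the 10 genes under an alternative setting, 1700 counted as the same. Of the rest, 31 lost a call, 10 gained one, 30 moved and 2 reversed. A difference between the genotypes on a diet counted as the same if it moved by no more than its SE, whatever its side of the threshold. Any other difference counted as the same if it kept its direction and its side of the threshold. An uncalled value that crossed 0 by no more than its SE and stayed uncalled also counted as the same. The reversed pair was Eif4a2 between tissues on the TPM scale, at 0.20 on NCD (limma adjusted p 0.587) and 0.17 on HFD (adjusted p 0.0117). On that scale diet called 2 of the 10 genes in WT visWAT. Where a count under an alternative setting stands without the share of all genes called, it is not read as particular to these genes. Of 80 group levels, 52 moved by more than 1 SD on the TPM scale. They were brought to FPKM by a common factor for both tissues, whose FPKM sums differ, so this count depends on that factor. On the TPM scale the median of all genes moved by 0.29 for genotype in visWAT on NCD, by 0.34 for diet in WT visWAT and by 0.46 and 0.80 for tissue. With no filter on low values, diet called 1 gene in KO visWAT. DESeq2 called 4 there, and by genotype 1 of the 10 genes in visWAT on HFD (Eif4a2, beside 1.05% of all genes), 1 in visWAT on NCD (Eif4a2, beside 0.0569%) and 2 in liver on NCD (Eif4a2 and B630019A10Rik, beside 0.144%). By tissue on HFD DESeq2 called 6, with 4 left without an adjusted p. Among other genes within 5 Mb, DESeq2 called 1 by genotype in visWAT on HFD (Morf4l1-ps1), 5 in liver on HFD (Arvcf, Etv5, Masp1, Morf4l1-ps1 and Rtp4) and 1 in liver on NCD (Bcl6), and edgeR called 1 in liver on HFD (Arvcf). The cause of these differences between tools was not tested.

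The counts by genotype of the 10 genes are given as a description only, since these genes were chosen on that contrast. In liver on HFD the main fit called 3 of the 9 genes read (Kng1, Kng2 and Eif4a2), beside 0.197% of all genes. Every fit there without 1 mouse also called 3. Leaving out 1 mouse moved the number of the 10 genes called by genotype from 0 to 1 in visWAT on HFD (Eif4a2, without KO mouse 153) and from 0 to 1 in liver on NCD (Kng1, without the mouse labelled WT 182). For other genes within 5 Mb it gave 0 to 1 in liver on HFD (Arvcf, without WT mouse 155). By diet it gave 3 to 5 in WT visWAT (5 without the mouse labelled WT 182), 0 to 2 in KO visWAT (0 without KO mouse 166 or 179), 3 to 4 in WT liver and 2 to 3 in KO liver (3 without KO mouse 179). The share of all genes called in each of these fits is not set beside these counts, so the changes are not read as particular to the 10 genes. With the mouse as a replicate block, tissue called 9 genes on NCD and 10 on HFD, as without it, and the block changed no other call. Depth limits Rfc4 in liver (34 to 119 reads) and B630019A10Rik in visWAT (4 to 67 reads).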
